A study of Mus musculus with 16 samples.

Results

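Chemokine receptor transcripts were compared between the Tim-4+ and Tim-4- subsets of peritoneal tumor-associated macrophages (TAMs). The receptors were 9 genes taken by name, Ccr1, Ccr2, Ccr3, Ccr7, Ccrl2, Cx3cr1, Cxcr2, Cxcr4 and Ackr3, out of 55604 genes listed in the deposited counts. Wild-type female C57BL/6 mice, 6 to 8 weeks old at the start per the study's methods, carried intraperitoneal ID8 tumors, a mouse ovarian cancer cell line that produces ascites and, per the methods, carried luciferase for imaging. TAMs were taken 6 to 7 weeks later. Tim-4+ TAMs were pulled out with an anti-Tim-4 antibody and microbeads, and Tim-4- TAMs were then enriched with F4/80 microbeads from the cells left behind, so both groups came from tumor-bearing mice and no tumor-free control was part of this comparison. Each subset had 4 libraries that carry the pair numbers 793, 784, 783 and 779. The text calls the subsets paired and does not say whether a pair was 1 mouse or pooled mice, so p-values measure the spread between these isolations.

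Chemokine receptors are 7-transmembrane proteins that steer leukocytes along gradients of secreted chemokines, mostly through Gi proteins. Ccr2 lets monocytes leave the bone marrow and enter inflamed tissue, Cx3cr1 marks monocytes and several macrophage populations, and Cxcr4 retains leukocytes where Cxcl12 is made. Ackr3 and Ccrl2 are atypical members of the family. Ackr3 takes up Cxcl12 and signals through arrestins rather than G proteins, and Ccrl2 binds chemerin and presents it without signaling in the usual way.

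Of the 9 receptors, 8 had enough counts to be tested, and 5 of the 8 differed between the subsets at an adjusted p under 0.05, where 17.4% of all 16861 genes tested did so (edgeR quasi-likelihood test with the pair as a block, Benjamini-Hochberg adjustment over all genes). Ackr3, Ccrl2 and Ccr1 were higher in Tim-4+ TAMs, a direction called for 8.97% of all genes. Ccr2 and Cx3cr1 were lower, a direction called for 8.43% of all genes. Cxcr4, Ccr7 and Ccr3 did not pass the test, and Cxcr2 was nearly undetected. A change of at least 2-fold was called for 4 receptors (Ackr3, Ccrl2, Ccr2 and Cx3cr1), against 9.59% of all genes. The median log2 fold change of the 8 tested receptors was 0.65, and that of all tested genes was 0. Scaling by total counts moved the median of all genes to -0.36 and left 2 receptors higher (Ackr3 and Ccrl2) and the same 2 lower, against 4.68% of all genes higher and 29.1% lower. Of all calls 51.6% were higher with TMM and 13.9% with total counts.

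The stretch of 250 bases before the RefSeq transcription start (GRCm38.p6) is shown for the 4 receptors with the largest called changes, 2 lower and 2 higher in Tim-4+ TAMs, because these are the regions where a reader would look for shared regulatory letters. Capitals mark matches, on either strand, to GAGGAA (a core of sites bound by PU.1, a macrophage transcription factor). They also mark matches to AGATA, a core of sites bound by GATA factors, of which Gata6 is the factor of resident peritoneal macrophages. In the windows shown no match overlapped another.
Ccr2 (chr9:124101933-124102182, plus strand): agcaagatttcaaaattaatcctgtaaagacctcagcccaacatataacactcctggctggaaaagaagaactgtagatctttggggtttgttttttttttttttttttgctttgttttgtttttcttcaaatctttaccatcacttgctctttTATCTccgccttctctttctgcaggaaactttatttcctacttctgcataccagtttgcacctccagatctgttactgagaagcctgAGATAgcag
Cx3cr1 (chr9:120068297-120068546, minus strand): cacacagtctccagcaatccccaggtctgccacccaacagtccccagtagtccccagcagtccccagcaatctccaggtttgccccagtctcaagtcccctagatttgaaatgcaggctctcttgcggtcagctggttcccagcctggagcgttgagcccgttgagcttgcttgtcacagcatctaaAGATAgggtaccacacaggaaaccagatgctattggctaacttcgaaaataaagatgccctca
Ackr3 (chr1:90203730-90203979, plus strand): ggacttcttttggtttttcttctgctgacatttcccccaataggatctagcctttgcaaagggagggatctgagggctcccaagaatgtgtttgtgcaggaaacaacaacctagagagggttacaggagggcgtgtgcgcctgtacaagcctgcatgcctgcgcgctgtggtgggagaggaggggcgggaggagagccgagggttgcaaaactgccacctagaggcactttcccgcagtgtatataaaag
Ccrl2 (chr9:111057519-111057768, minus strand): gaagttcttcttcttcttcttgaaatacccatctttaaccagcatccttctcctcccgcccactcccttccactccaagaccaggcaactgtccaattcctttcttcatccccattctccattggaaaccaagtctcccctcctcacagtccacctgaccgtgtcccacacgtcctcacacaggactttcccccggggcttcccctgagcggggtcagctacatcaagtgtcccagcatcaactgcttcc

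The Ccr2 window held 2 AGATA matches and the Cx3cr1 window held 1. By the GENCODE positions given below, most of the Ccr2 window and all of the Cx3cr1 window lay inside the annotated gene. These matches are thus before the RefSeq start but after the GENCODE start. The Ackr3 window held neither motif. Ccrl2 has 3 RefSeq starts, and the window shown, of the farthest upstream start, held neither motif, while the windows of its other 2 starts, which overlap each other, held 1 AGATA match each. RefSeq promoters were found for 8 of the 9 receptors, with 10 starts in all, and Ccr7 was without an entry. Of those 10 windows, 3 had a GAGGAA match and 6 an AGATA match, 2 of the 6 being the overlapping Ccrl2 windows. Among 32851 windows of the same length, 23.3% held GAGGAA and 26.6% AGATA. These matches are descriptions of letters and not of bound sites.

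The libraries held between 53527928 and 57768202 counts for the Tim-4+ subset and between 55618306 and 69594245 for the Tim-4- subset. Levels are given as CPM, counts scaled to library size, with TMM factors that correct for differences in library composition. Pan-macrophage genes were high in both subsets, with the 9 markers summing to 43700 to 56000 CPM in the Tim-4+ subset and to 21400 to 33700 CPM in the other, totals that come mostly from the lysozyme gene Lyz2. Of these 9 markers 5 were called higher and 1 (Mrc1) lower in Tim-4+ TAMs. Calls in this and the other marker lists stand beside 8.97% of all genes called higher and 8.43% called lower. All 7 resident peritoneal macrophage markers, Timd4 and Gata6 among them, were called higher in Tim-4+ TAMs, with Timd4 at 1150 ± 498 CPM against 30.1 ± 37.5 CPM (SD, n = 4). Timd4 encodes Tim-4, on which the cells were selected, so its difference was set by the selection. Gata6 differed less, at 132 ± 43.6 against 81.6 ± 31.9 CPM with overlapping ranges (log2 fold change 0.71, SE 0.12, adjusted p = 0.0122, edgeR). The 10 tumor and mesothelial markers ranged in sum from 107 to 387 CPM in the Tim-4+ libraries and from 433 to 2120 CPM in the Tim-4- libraries, and 8 of them were called lower in Tim-4+ TAMs. In bulk samples such as these, fewer cells of a type and less RNA per cell cannot be told apart.

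Ccr2 was the receptor with the largest difference. It is at chr9:124101950-124113557 on GRCm38 (plus strand, ENSMUSG00000049103.14). In Tim-4+ TAMs its level was 10.5, 5.94, 15.9 and 11.8 CPM in pairs 793, 784, 783 and 779, and in Tim-4- TAMs it was 141, 115, 142 and 114 CPM in the same order. Every Tim-4- library was above every Tim-4+ library. The log2 fold change was -3.61 (SE 0.21, adjusted p = 0.000829, edgeR), a 12.2-fold lower level, and the 4 pairs ranged from 8.89-fold to 19.3-fold lower. The Tim-4- libraries spanned only a 1.24-fold range, while those of Tim-4+ TAMs spanned 2.69-fold. In Tim-4+ TAMs the transcript was still counted 297 to 873 times per library. Ccr2 was the 1 receptor called under every alternative, including the fit without the pair block.

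The genes listed as monocyte markers did not all follow Ccr2. Ly6c2, which encodes a surface marker of inflammatory monocytes, was lower in Tim-4+ TAMs (log2 fold change -3.24, SE 0.43, adjusted p = 0.00776, edgeR), and so was the monocyte and macrophage lectin gene Chil3 (-1.75, SE 0.33, adjusted p = 0.0163, edgeR). Of the other 5 listed markers, Fn1 was called higher, at 33500 ± 5280 against 17200 ± 6450 CPM (SD, n = 4), and 4 did not pass the test. The 7 markers together ranged in sum from 29200 to 42100 CPM in the Tim-4+ libraries and from 11600 to 27700 CPM in the Tim-4- libraries. These totals come mostly from Fn1, which was higher in the subset with the higher resident markers, so they are not a measure of monocytes. The part of monocytes in the Ccr2 difference was not tested.

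Cx3cr1, the fractalkine receptor, lies at chr9:119901616-120069879 (minus strand, ENSMUSG00000052336.7). Its level was 41.4, 83.6, 197 and 15.3 CPM in Tim-4+ TAMs of pairs 793, 784, 783 and 779, and 169, 394, 440 and 67.4 CPM in the Tim-4- TAMs of those pairs. The ranges of the subsets overlapped, since the pairs differed widely, but the Tim-4- library was the higher one in each of the 4 pairs and the pairs kept the same order in both subsets. The log2 fold change was -1.89 (SE 0.19, adjusted p = 0.00434, edgeR), or 3.72-fold lower in Tim-4+ TAMs, with 2.24-fold in pair 783 and 4.09-fold to 4.72-fold in the others. Without the pair block the adjusted p was 0.258. The annotated span of Cx3cr1 overlaps 9 other genes on both strands, among them Wdr48, Gorasp1 and Xirp1, and whether counting used strand is not stated, so reads from shared positions cannot be assigned with certainty.

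**Figure D1:**
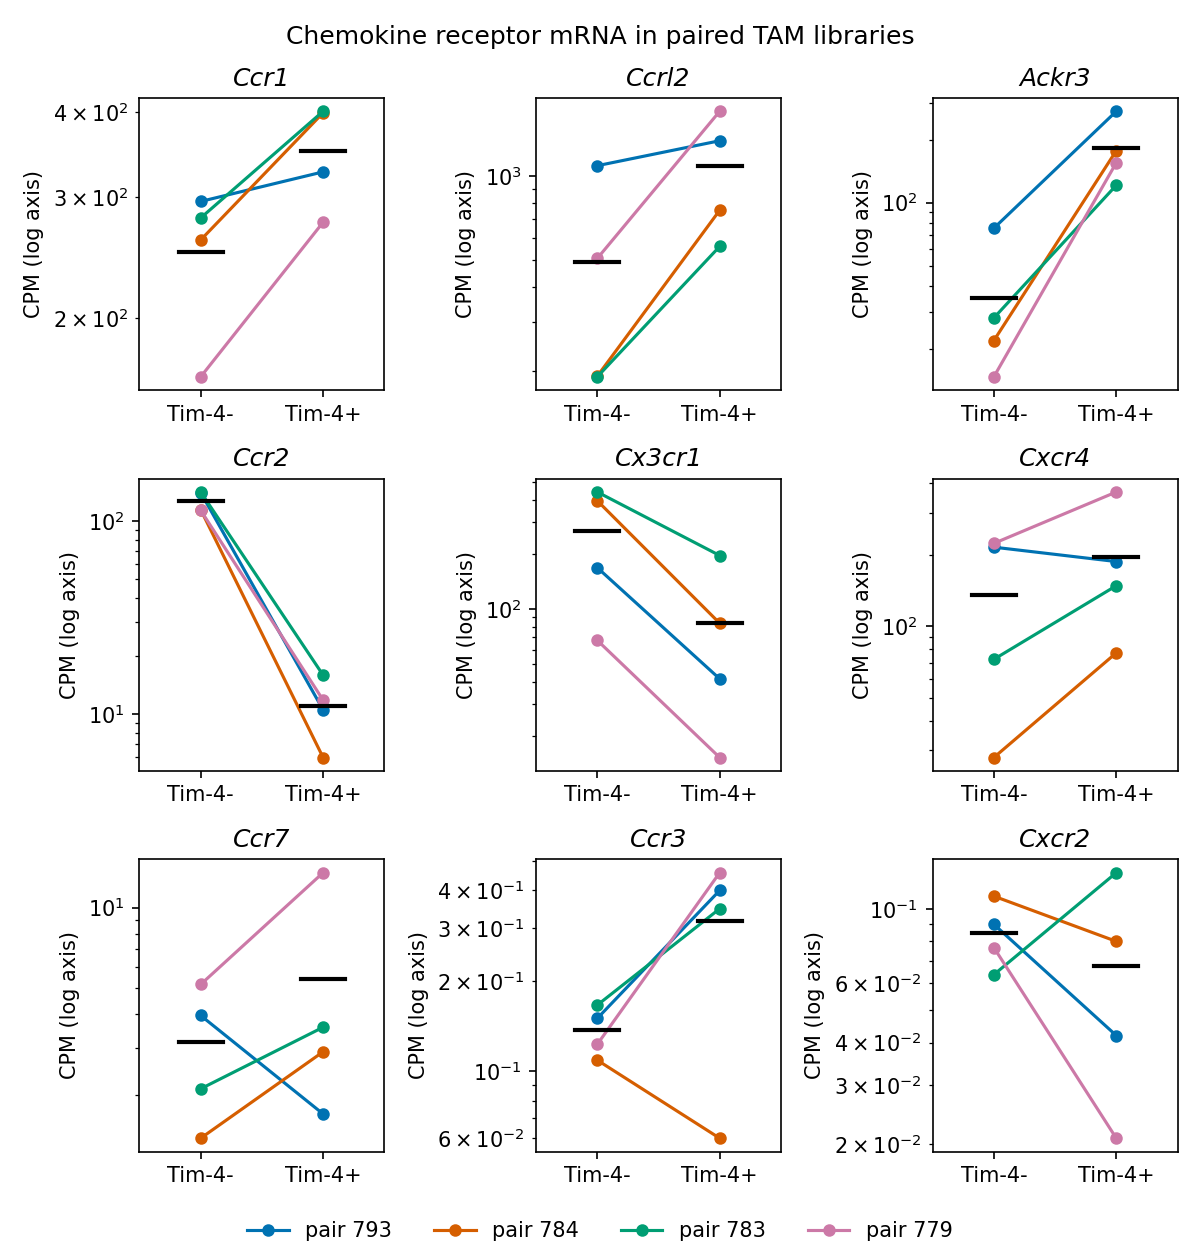
Level of each of the 9 receptors in the 8 libraries, in CPM on log axes that differ between panels, with Tim-4- TAMs on the left and Tim-4+ TAMs on the right of each panel. Colored lines join the libraries of a pair and black bars are means of 4 libraries. Ccr2 and Ackr3 are the receptors whose subsets do not overlap, Cx3cr1 falls in every pair from widely different starting levels, and Cxcr2 stays under 0.2 CPM throughout.

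Ccr1, a receptor for inflammatory chemokines such as Ccl3, is at chr9:123962124-123968692 (minus strand, ENSMUSG00000025804.5). Its level was 327, 399, 401 and 276 CPM in Tim-4+ TAMs and 296, 260, 280 and 164 CPM in Tim-4- TAMs, in the order 793, 784, 783 and 779. The Tim-4+ library was higher in all 4 pairs, though the lowest Tim-4+ library lay within the Tim-4- range. Fitted over the pairs, the log2 fold change was 0.51 (SE 0.14, adjusted p = 0.0391, edgeR), a 1.42-fold difference. This call was close to the threshold and was lost without the pair block (adjusted p = 0.239), with total-count scaling (log2 fold change 0.15, adjusted p = 0.282) and without pair 784, 783 or 779 (adjusted p = 0.153, 0.0726 and 0.143).

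Ccr3, the eotaxin receptor best known from eosinophils, was barely present. It is at chr9:124021972-124031689, between Ccr1 and Ccr2, which together with it span 151 kb. The 4 Tim-4+ libraries held 19, 3, 19 and 22 counts and the Tim-4- libraries 10, 8, 13 and 8. The log2 fold change was 1.0 (SE 0.64, adjusted p = 0.319, edgeR), and 3 of 4 pairs were higher in Tim-4+ TAMs. Of the 8 eosinophil markers, Prg3 and Ear1 had no counts in any library, and the list ranged in sum from 0.27 to 1.07 CPM in the Tim-4+ libraries and from 0.706 to 2.07 CPM in the Tim-4- libraries. The 3 neighbors of the cluster therefore gave 1 lower, 1 higher and 1 receptor that did not pass the test.

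Cxcr4, the signaling receptor for Cxcl12, is at chr1:128588199-128592293 (minus strand, ENSMUSG00000045382.6). It was measured at 187, 77.2, 148 and 367 CPM in Tim-4+ TAMs and at 215, 28.0, 72.5 and 223 CPM in Tim-4- TAMs of pairs 793, 784, 783 and 779. Tim-4+ TAMs had the higher level in 3 of 4 pairs, and the order of the pairs was the same in both subsets. On the log2 scale the difference was 0.75 (SE 0.26, adjusted p = 0.0958, edgeR). The difference passed the threshold when pair 793 was left out (log2 fold change 1.07, adjusted p = 0.0292, edgeR) and with DESeq2 (0.76, adjusted p = 0.0205).

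Ccr7, which guides dendritic cells and lymphocytes to lymph nodes, is at chr11:99144196-99155077 (minus strand, ENSMUSG00000037944.8). Its level was 1.70, 2.90, 3.58 and 13.5 CPM in Tim-4+ TAMs and 3.96, 1.38, 2.11 and 5.17 CPM in Tim-4- TAMs, in the order above. The Tim-4+ library of pair 779 was far above the other Tim-4+ libraries, and pair 793 ran in the opposite direction from the rest. On the log2 scale the difference was 0.54 (SE 0.44, adjusted p = 0.434, edgeR). Among 8 tested dendritic cell markers 2 were called higher in Tim-4+ TAMs (Cd209a and Ccl22) and 1 lower (Zbtb46), against 8.97% and 8.43% of all genes. The 9 listed markers summed to 44.0 to 77.5 CPM in the Tim-4+ and 35.0 to 78.5 CPM in the Tim-4- libraries.

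Cxcr2, the receptor that draws neutrophils toward Cxcl1 and Cxcl2, is at chr1:74153989-74161246 (plus strand, ENSMUSG00000026180.8). It had 2, 4, 7 and 1 counts in Tim-4+ libraries and 6, 8, 5 and 5 counts in Tim-4- libraries. No library reached the minimum of 10 counts, so it was not tested and no fold is given. The neutrophil marker Ly6g had 0 to 5 counts per library, while S100a8 had 73 to 158. Mpo and S100a9 reached 182 and 74 counts in the Tim-4- library of pair 784. A difference in Cxcr2 was not detectable at this depth.

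Ackr3 was the receptor with the largest rise in Tim-4+ TAMs. It is at chr1:90203980-90216751 (plus strand, ENSMUSG00000044337.5). The level was 273, 177, 121 and 155 CPM in Tim-4+ TAMs and 75.4, 21.9, 28.1 and 14.7 CPM in Tim-4- TAMs of pairs 793, 784, 783 and 779. The subsets did not overlap, as was also true of Ccr2, so that 2 of the 8 tested receptors had separate ranges, against 12.8% of all genes tested. The log2 fold change was 2.59 (SE 0.28, adjusted p = 0.00667, edgeR), a 6.03-fold higher level, with 3.62-fold in pair 793 and 10.6-fold in pair 779 as the extremes. The adjusted p was 0.0535 without the pair block and 0.0549 without pair 784.

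Ccrl2 had the highest mean level of the 9 receptors in both subsets, although in the Tim-4- libraries of pairs 784 and 783 it was below Ccr1 and Cx3cr1. It is at chr9:111054486-111057519 (minus strand, ENSMUSG00000043953.12). It was measured at 1340, 754, 559 and 1710 CPM in Tim-4+ TAMs and at 1090, 191, 190 and 506 CPM in Tim-4- TAMs. The Tim-4- library of pair 793 exceeded 2 of the Tim-4+ libraries, but within each pair the Tim-4+ library was higher. Fitted over the pairs, the log2 fold change was 1.41 (SE 0.28, adjusted p = 0.0202, edgeR), or 2.66-fold, and it was 1.23-fold in pair 793 against 2.94-fold to 3.95-fold in the other pairs. The call was lost without the pair block (adjusted p = 0.314) and without pair 784 or 779 (adjusted p = 0.103 and 0.0962).

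**Figure D2:**
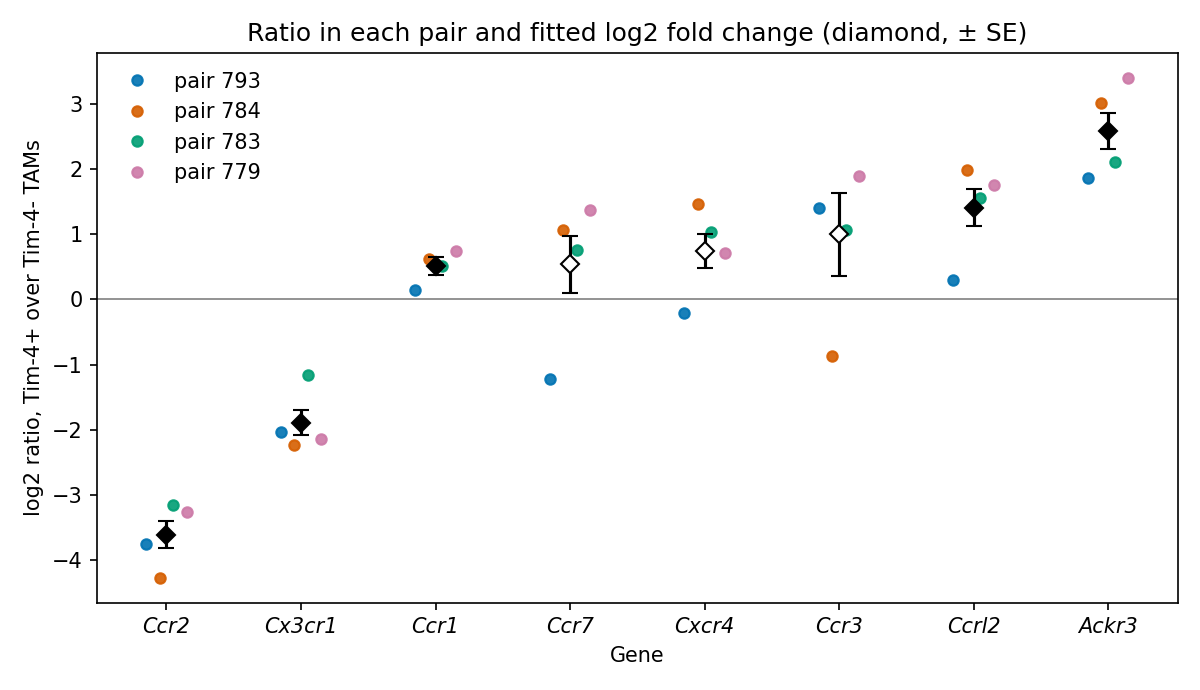
Log2 ratio of Tim-4+ over Tim-4- TAMs for the 8 tested receptors, as colored points for each of the 4 pairs and as diamonds for the fitted log2 fold change with its SE. Filled diamonds passed an adjusted p under 0.05. All 4 pairs fall on the same side of 0 for Ccr2, Cx3cr1, Ccr1, Ccrl2 and Ackr3, while Ccr7, Cxcr4 and Ccr3 each have 1 pair on the other side.

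For 5 of the 8 tested receptors the 4 pairs ran in 1 direction, a pattern that 42.6% of all genes tested had. Pair 793 gave the smallest ratio among the 4 pairs for each of the 3 receptors called higher, and it was the pair that ran the other way for Cxcr4 and Ccr7. The Tim-4- library of this pair is the one with a lane listed by symbol, and leaving that lane out changed no call among the receptors. That library also had the highest sum of resident macrophage markers in the Tim-4- subset. The 7 resident markers summed to 3760 CPM there, of which Prg4 made up 2400 CPM, against 1250 to 1620 CPM in the other Tim-4- libraries. Timd4 was at 84.9 CPM against 1.96 to 22.3 CPM, and Vsig4, Cd5l, Icam2 and Selp were also highest there. Gata6 was not, at 78.3 CPM against 86.9, 41.9 and 119 CPM in pairs 784, 783 and 779. The part of resident macrophages in the ratios of pair 793 was not tested.

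How much of the variation went with the subset differed among the receptors. The subset took 95.8% of the sum of squares of log2 CPM for Ccr2 and 78.2% for Ackr3, and the pair took 2.81% and 17.1%. For Cx3cr1 the subset took 37.3% and the pair 60.8%, leaving 1.90%. Ccrl2 and Ccr1 had a subset share of 39.1% and 44.0% with a pair share of 52.4% and 47.2%. Cxcr4 varied mainly by pair, at 81.0%, with 11.4% by subset. Over all genes tested the median share was 19.0% for the subset and 52.4% for the pair.

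**Figure D3:**
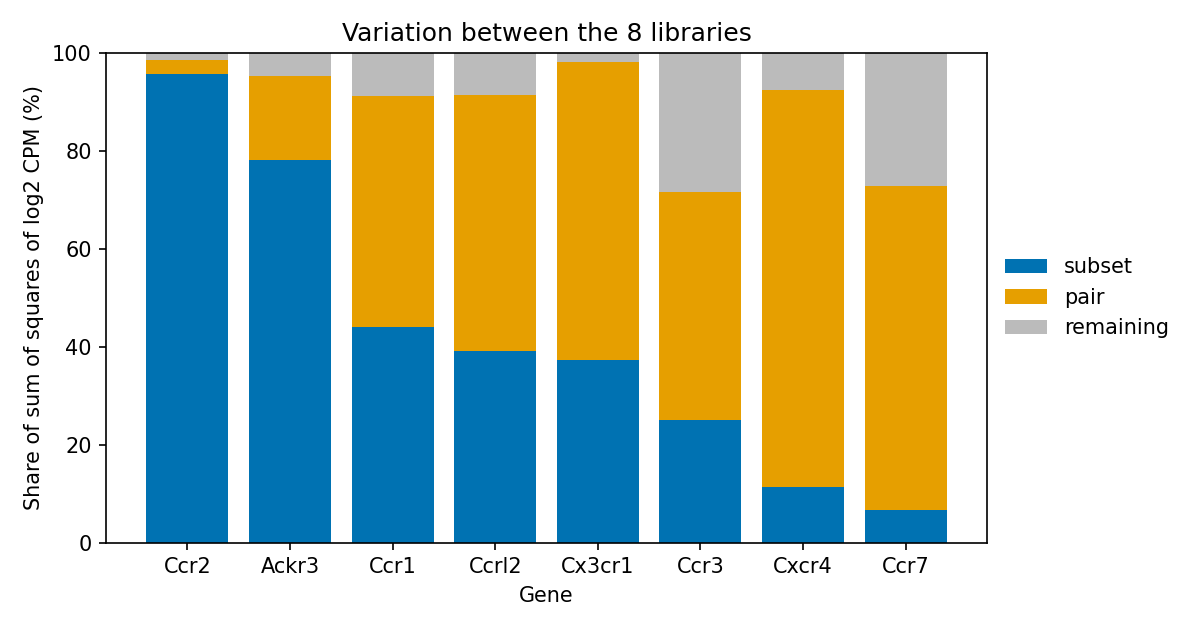
Share of the sum of squares of log2 CPM over the 8 libraries, in percent, that went with the subset, with the pair and with neither, for the 8 tested receptors in order of the subset share. The subset bar reaches 95.8% for Ccr2 and 6.58% for Ccr7.

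The pairs with high Cxcr4 and Ccrl2 were 793 and 779 in both subsets, and those with high Cx3cr1 were 783 and 784. Over the 8 libraries, which share their pairs, the Pearson r of log2 CPM was -0.85 between Ccrl2 and Cx3cr1, 0.81 between Ccrl2 and Cxcr4 and -0.76 between Cx3cr1 and Cxcr4. Ccr2 and Ackr3 had an r of -0.86. These values describe 8 libraries and carry no test.

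Levels of different receptors were compared per kilobase of exonic length. In Tim-4+ TAMs the order was Ccrl2 (420 ± 204 CPM per kb, SD, n = 4), Ccr1 (124 ± 21.4), Cxcr4 (108 ± 68.2), Ackr3 (54.3 ± 19.4), Cx3cr1 (18.7 ± 17.8), Ccr7 (2.73 ± 2.74), Ccr2 (1.63 ± 0.61), Ccr3 (0.0965 ± 0.0539) and Cxcr2 (0.0222 ± 0.0154). Ccrl2 was separated from Ccr1, and Ccr2 from Ccr3, while all other neighbors in this order overlapped between libraries. In Tim-4- TAMs the order was Ccrl2 (190 ± 163 CPM per kb), Ccr1 (88.2 ± 21), Cxcr4 (74.5 ± 54.9), Cx3cr1 (59.4 ± 39.6), Ccr2 (18.9 ± 2.29), Ackr3 (10.5 ± 8.21), Ccr7 (1.60 ± 0.873), Ccr3 (0.0418 ± 0.00779) and Cxcr2 (0.0279 ± 0.00639). There, Ackr3 was separated from Ccr7 and Ccr7 from Ccr3, and the other neighbors overlapped. By mean level per kb, Ackr3 stood above Cx3cr1 and Ccr2 in Tim-4+ TAMs and below both in Tim-4- TAMs.

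For each tested receptor, the 3 genes with the most similar log2 CPM over the 8 libraries were taken from the tested genes whose mean reached 10 CPM. For Ccr2 these were Plxnd1 (Pearson r = 0.983), Fam129a (0.975) and Clec4a2 (0.974). For Ackr3 they were Car6 (0.993), Kdm4a (0.984) and Shank3 (0.983), and for Cx3cr1 they were G2e3 (0.969), Extl3 (0.968) and Ggta1 (0.963). Ccrl2 was closest to Rilpl2 (0.989), Nfkbiz (0.987), a regulator of NF-kB target genes, and the kinase gene Pim1 (0.987). Cxcr4 was closest to the calcium channel gene Orai3 (0.984), Jun (0.981), an immediate early transcription factor gene, and Ppp1r15a (0.972). Ccr1 was closest to Tmem104 (0.986), Tmppe (0.960) and Stat6 (0.960), Ccr7 to Mlxip (0.934), Zfp513 (0.929) and Ttll5 (0.913), and Ccr3 to Ncoa7 (0.949), Tbc1d19 (0.949) and Rnf144b (0.948). With 8766 genes compared over 8 libraries that share pairs, high values of r arise readily, and no test was made.

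Among 17 other chemokine receptors, 10 were tested, of which edgeR called 1 higher and 0 lower in the Tim-4+ subset (2 and 1 at an unadjusted p under 0.05, and 1 and 1 called by DESeq2 with the block). The share called higher was close to the 8.97% of all genes. Cmklr1, the signaling receptor for chemerin, the ligand that Ccrl2 also binds, averaged 687 ± 67.8 CPM in the Tim-4+ and 441 ± 157 CPM in the Tim-4- libraries (SD, n = 4; log2 fold change 0.70, SE 0.16, adjusted p = 0.0257, edgeR). It was higher in all 4 pairs. The other 9 tested receptors had under 5 CPM in every library, and Cxcr1 had no counts. The median log2 fold change of the 10 was -0.39. The Cmklr1 call was lost without pair 784 or 779 (adjusted p = 0.123 and 0.101, edgeR), without the pair block (adjusted p = 0.17) and with total-count scaling (log2 fold change 0.34, adjusted p = 0.0667).

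Of 23 ligands of the receptors, 16 were tested, 5 were called higher and 3 lower, against 8.97% and 8.43% of all genes, and their median log2 fold change was -0.09. Cxcl12, the ligand of Cxcr4 and Ackr3, was at 20.2, 3.78, 3.42 and 13.4 CPM in Tim-4+ and 4.93, 0.355, 0.331 and 2.24 CPM in Tim-4- TAMs of pairs 793, 784, 783 and 779. It was higher in Tim-4+ TAMs in every pair although the ranges overlapped (log2 fold change 2.79, SE 0.28, adjusted p = 0.00395, edgeR). The ligand and the receptors Ackr3 and Cxcr4 were thus measured in the same libraries, with Ackr3 and Cxcl12 called and Cxcr4 not called.

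Ccl24, a ligand of Ccr3, was at 248 ± 152 CPM in Tim-4+ and 62.0 ± 42.9 CPM in Tim-4- TAMs (log2 fold change 2.11, SE 0.24, adjusted p = 0.00667, edgeR), while its receptor was at the limit of detection in both. The neutrophil attractants Cxcl1 (1.75, SE 0.26, adjusted p = 0.00985, edgeR) and Cxcl2 (1.27, SE 0.29, adjusted p = 0.0266, edgeR) were higher as well, with Cxcl2 at 2670 ± 1230 against 1210 ± 787 CPM, and their receptor Cxcr2 was nearly undetected. The Cxcl2 call was lost in 4 of 12 alternatives, among them DESeq2 with the block (log2 fold change 1.27, adjusted p = 0.138), and the Cxcl1 call in 3. The Ccr1 ligand Ccl3 was higher (1.37, SE 0.36, adjusted p = 0.045, edgeR), a call that was lost in 5 of 12 alternatives, among them no filter on low counts (adjusted p = 0.257) and total-count scaling (adjusted p = 0.056).

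The ligands called lower were Ccl8 (log2 fold change -1.95, SE 0.37, adjusted p = 0.016, edgeR), Ccl12 (-0.88, SE 0.19, adjusted p = 0.0228, edgeR), which acts on Ccr2, and Cx3cl1 (-1.81, SE 0.44, adjusted p = 0.0388, edgeR), the membrane-bound ligand of Cx3cr1. The Cx3cl1 call was lost in 5 of 12 alternatives, among them no filter on low counts (adjusted p = 0.198, edgeR) and no pair block (adjusted p = 0.106, edgeR). The Ccl8 call was lost in 3 of the 12 and the Ccl12 call in 4. Cx3cl1 is a gene of epithelial and other non-leukocyte cells, and the tumor and mesothelial markers given above were lower in the same libraries. Their part in the Cx3cl1 difference was not tested. The other Ccr2 ligands did not pass the test, with Ccl2 at 205 ± 59.8 and 182 ± 22.2 CPM and Ccl7 at 74.9 ± 37.9 and 103 ± 19.6 CPM. Ccl6 (1010 ± 160 against 1110 ± 317 CPM), Ccl9 (470 ± 82.6 against 603 ± 42.2 CPM) and Ccl4 (40.2 ± 8.45 against 47.4 ± 25.8 CPM) did not pass either. The Ccr7 ligands Ccl19 and Ccl21a had no counts. Without pair 784, edgeR called 2 ligands higher and 0 lower (5 and 4 at an unadjusted p under 0.05), and without pair 779 it called 2 and 0 (5 and 3). Leaving out pair 793 left 5 higher and 1 lower. No ligand was called without the pair block (3 higher and 1 lower at an unadjusted p under 0.05).

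All 26 genes of a list of receptor signaling and turnover were tested, 8 were called higher and 1 lower, against 8.97% and 8.43% of all genes, and the median log2 fold change was 0.41. The genes called higher were Rgs18 (log2 fold change 1.29, SE 0.17), Rgs2 (1.22, SE 0.20) and Rgs19 (0.45, SE 0.12), which shorten G protein signals, the arrestin gene Arrb2 (0.86, SE 0.17), the receptor kinase gene Grk5 (0.80, SE 0.16), and Rac2 (0.89, SE 0.15), Elmo1 (0.51, SE 0.13) and Ptk2b (0.74, SE 0.16), which act in cell migration. Their adjusted p-values ran from 0.00711 (Rgs18) to 0.0366 (Rgs19) in edgeR's test. Grk3, another receptor kinase gene, was lower, at 1.70 ± 0.963 CPM in Tim-4+ and 7.49 ± 3.03 CPM in Tim-4- TAMs (log2 fold change -2.24, SE 0.40, adjusted p = 0.014, edgeR). Arrb1 (152 ± 21.5 against 127 ± 39.4 CPM) and Grk2 (348 ± 44.4 against 320 ± 63.4 CPM) did not pass the test. The other genes that did not pass were Gnai2, Gnai3, Gnb1, Gnb2, Gng2, Grk6, Rgs1, Pik3cg, Pik3r5, Plcb2, Plcb3, Dock2, Prex1, Fnip1 and Jak2, with log2 fold changes from -0.23 (Prex1) to 0.58 (Grk6). Fnip1 was counted with the list but is not an established gene of chemokine receptor signaling. Without pair 784, edgeR called 0 of the 26 higher and 0 lower (10 and 1 at an unadjusted p under 0.05), and without pair 793 or 779 it called 5 or 3 higher. Without the pair block it called 0 (10 and 1 unadjusted).

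**Figure D4:**
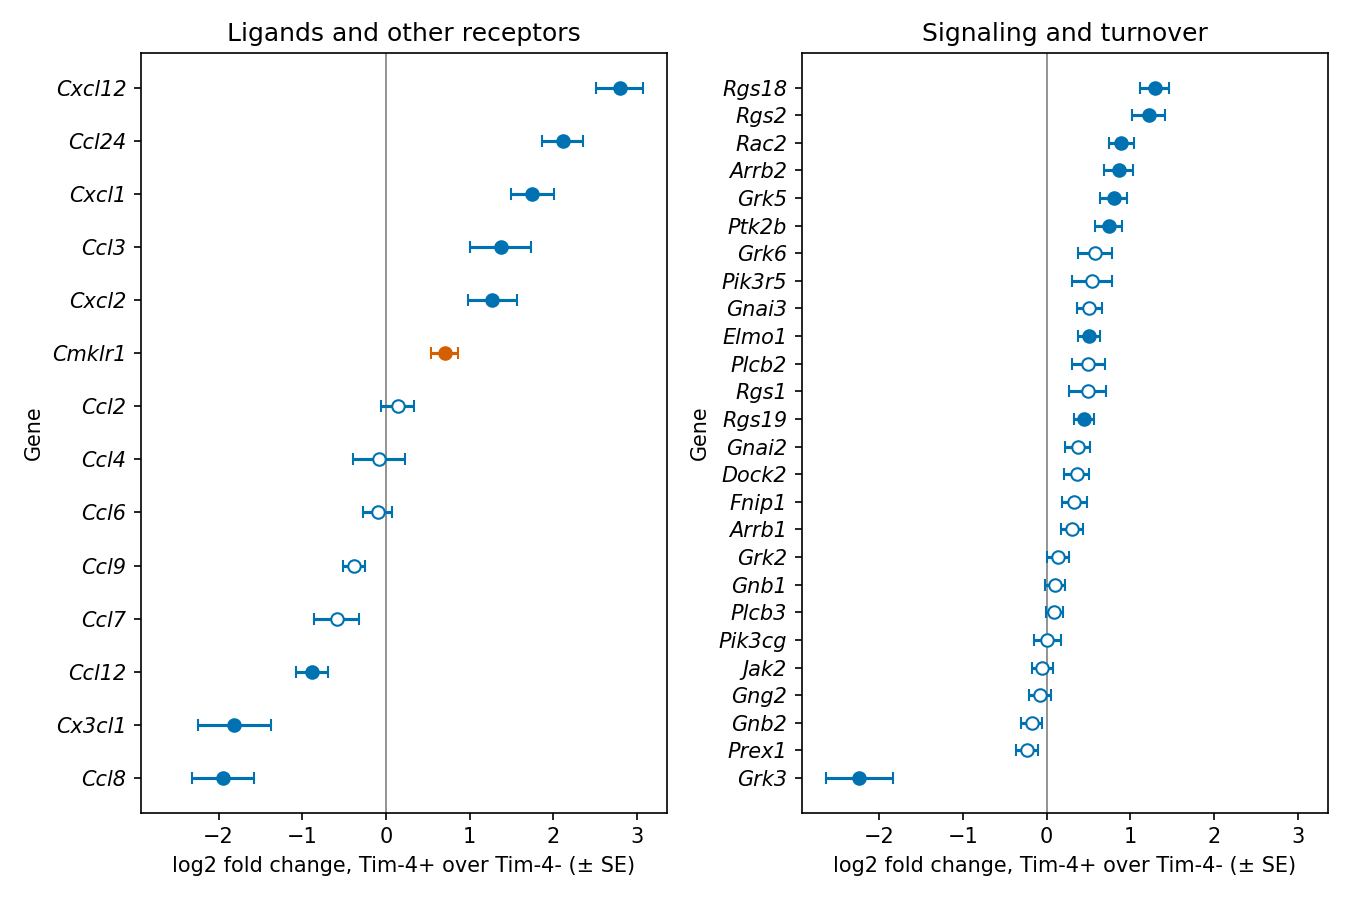
Log2 fold change of Tim-4+ over Tim-4- TAMs with its SE for ligands (blue, left), other chemokine receptors (orange, left) and signaling and turnover genes (right) that were called or averaged 10 CPM or more. Filled points passed an adjusted p under 0.05. The left panel runs from Ccl8 at -1.95 to Cxcl12 at 2.79, and the right panel from Grk3 at -2.24 to Rgs18 at 1.29.

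Markers of other leukocytes moved with the subsets in part. The 7 mast cell markers ranged in sum from 3.97 to 16.1 CPM in the Tim-4+ libraries and from 20.1 to 68.2 CPM in the Tim-4- libraries, with Mcpt4 and Kit called lower. Kit alone was at 2.39 to 15.4 and 13.2 to 55.6 CPM. Cpa3, Cma1 and Tpsb2 did not pass the test (adjusted p = 0.0793, 0.0627 and 0.0887, edgeR). Each was lower in Tim-4+ TAMs in 3 pairs, but in pair 783 the Tim-4- library had less (0.0892, 0.0637 and 0.166 CPM against 0.201, 0.146 and 0.347 CPM). The 10 T and NK cell markers summed to 0.42 to 3.29 CPM in the Tim-4+ libraries and 4.12 to 11.6 CPM in the Tim-4- libraries. Most of the Tim-4- sums came from Cd4, at 3.42 to 7.48 CPM, which was called lower in Tim-4+ TAMs. The T cell genes Cd3e, Cd3d and Cd3g reached at most 0.273, 0.331 and 0.535 CPM in any Tim-4- library, so the sum rests mainly on Cd4. Only 2 of these 10 markers had enough counts to be tested. The 8 B cell markers summed to 37.0 to 93.2 and 87.6 to 168 CPM, with 3 called lower, against 8.43% of all genes. The 10 neutrophil markers summed to 252 to 370 and 87.1 to 191 CPM, nearly all of it Csf3r, which was called higher and which macrophages also express. The part of these cells in the differences of Ccr2 and Cx3cr1, receptors that lymphocytes or monocytes also carry, was not tested.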

How the data were processed

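RNA-Seq libraries (rRNA-depleted, stranded, paired end, 50 cycles) were each sequenced in 2 lanes. For every lane the authors deposited counts of reads on each gene, not normalized. The submitters' processing notes name FastQC 0.11.3, TopHat2 2.0.13, Cufflinks, Cuffdiff 2.2.1 and the builds GRCm38 and mm10, whereas the methods name hg19. The program that counted reads and its strand setting are not given in the sources used here. In the 15 lanes listed by Ensembl identifier, reads on summary lines that name no gene (no feature, ambiguous or not unique) were left out. They were 29.8% to 32.9% of reads in 14 lanes and 18.9% in lane 2 of the Tim-4- library of pair 779, which had fewer reads that were not unique. The other lane, of the Tim-4- library of pair 793, is listed by symbol and was joined by order. Of its comparable symbols 96.8% matched, and all 9 receptors did. Symbols and positions are from GENCODE M21 (GRCm38), which held 98.6% of the identifiers.

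The lanes were summed, so that 1 library was 1 replicate (n = 4 per subset). The 16861 genes that reached 10 counts in 4 or more of the 8 libraries were fitted with edgeR 4.0.16 in R 4.3.3 (quasi-likelihood, robust, TMM, pair number as a block, Benjamini-Hochberg adjustment), and genes were called at an adjusted p under 0.05. The SE is the size of the log2 fold change divided by the square root of F. The pair numbers come from the sample labels. A supplementary table of the study appears to give them to the same pairs in reverse order, which would rename pairs and change no pairing. Same-numbered libraries were taken as pairs because the study's text calls the subsets paired. The deviations of same-numbered libraries from their subset means had correlations of 0.277 to 0.498 in the 4 pairs. Differently numbered libraries were not compared, so these values cannot decide the pairing. Alternatives were no block, DESeq2 size factors, total counts, 2 other filters, lane 2 only, DESeq2 1.42.0 with the block and each pair left out. Leaving out the symbol-listed lane was added after seeing the data.

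The receptors and gene lists were chosen with earlier results of these data known, and 1 gene of the lists is not reported here. Named were all receptors, every called gene or gene with a mean of at least 10 CPM on the other 3 lists, marker lists by their range, and the 3 most similar genes per receptor. Promoter sequences are from RefSeq (GRCm38.p6), and the motifs searched in them were settled after the sequences were seen.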

Additional observations from a re-analysis of the deposited data

Results flagged for a closer look

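In 98 groups of 4 libraries (49 named genes in 2 subsets), 5 had a library far from the others by Dixon's gap ratio, and chance alone gives about 1 in 20 such groups. Ccr7 in the Tim-4+ library of pair 779 was at 13.5 CPM, against 1.70 to 3.58 CPM in the other Tim-4+ libraries. Ccl8 in the Tim-4+ library of pair 783 was at 12.6 CPM, against 0.168 to 1.37 CPM. Gnai3 was at 142 CPM in the Tim-4+ library of pair 783, below 261 to 280 CPM in the others, and Gnb1 was at 518 CPM in that of pair 784, above 346 to 369 CPM. Pik3cg was at 31.3 CPM in the Tim-4- library of pair 779, below 95.0 to 97.2 CPM in the others.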

How the results depend on the processing

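No receptor changed direction under the alternatives that gave it a value. Ccr2 was called in all 12 alternatives, Cx3cr1 in 11, Ackr3 in 10, Ccrl2 in 9 and Ccr1 in 7. Ccr3 had too few counts under 4 alternatives (lane 2 only, the 1 CPM filter, and without pair 793 or 783) and gave no value there.

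Without the replicate block, 0 receptors were called higher and 1 lower by edgeR (1 and 1 at an unadjusted p under 0.05), with Ccr1 at 0.49, Ccrl2 at 1.14, Ackr3 at 2.38 and Cx3cr1 at -1.67 on the log2 scale (adjusted p = 0.239, 0.314, 0.0535 and 0.258). The other receptors, ligands and signaling lists then had 0 calls in either direction (unadjusted 1 higher and 1 lower, 3 and 1, and 10 and 1), and all genes had 147 higher and 85 lower against 1512 and 1421 with the block.

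With total counts in place of TMM, the median log2 fold change of all genes was -0.36 and the calls split into 789 higher and 4903 lower, 13.9% higher against 51.6% with TMM. Ccr1 was then at 0.15 (adjusted p = 0.282), the other receptors had 0 higher (1 unadjusted) and 1 lower, ligands had 5 lower, and the signaling list had 5 higher and 4 lower. Genes that did not pass the test changed sign: Ccl2 -0.22, Gnb1 -0.26, Arrb1 -0.061, Grk2 -0.22, Pik3cg -0.35, Plcb3 -0.26, Dock2 -0.0008 and Fnip1 -0.028. With DESeq2 and the block, Cxcr4 was called (0.76, adjusted p = 0.0205), 1 other receptor (Gpr182) was lower, and of all genes 2194 were higher and 2328 lower. Pik3cg was at -0.06 without the replicate block and -0.0053 without the filter on low counts.

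Leaving out 1 pair at a time gave 0 to 4 receptors called higher (4 at an unadjusted p under 0.05 where it was 0) and 2 lower. It gave 0 to 1 other receptors higher and 0 to 2 lower (Ccr10 and Gpr182, without pair 783), 2 to 5 ligands higher and 0 to 4 lower, 0 to 11 signaling genes higher and 0 to 1 lower, and 78 to 1573 of all genes higher and 54 to 1895 lower. The lowest counts of all genes came without pair 784. Log2 fold changes ranged from 0.42 to 0.64 for Ccr1, 1.21 to 1.77 for Ccrl2, 2.32 to 2.85 for Ackr3 and 0.51 to 1.07 for Cxcr4. Sign changes were seen for Ccl2 without pair 783 (-0.067), Ccl4 without 793 (0.16) or 779 (0.18), Gng2 without 784 (0.017), Jak2 without 784 (0.088) and Pik3cg without 783 (-0.037) or 779 (-0.17). Their other extremes were 0.32 for Ccl2, -0.39 for Ccl4, -0.15 for Gng2 and -0.15 for Jak2. The cause of these changes was not tested. Few counts limit what can be said of Cxcr2 and Ccr3.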
